A study of Mus musculus with 18 samples.

Results

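Adrenal glands of castrated male mice were compared with those of females, all lacking Ephb6, on 3 castrated KO arrays and 3 female KO arrays out of 18 in the series. The 6 arrays were chosen by their titles, and the comparison is described over the 10032 autosomal genes that passed a detection filter, out of 10375 genes tested. Genes of the X and Y chromosomes are left out of the counts, because the animals compared differ in sex chromosomes. Every mouse was of strain C57BL/6N and 2 months old, and the tissue was the whole adrenal gland. The castrated KO group was made up of castrated males with Ephb6 knocked out, the female KO group of knockout females whose ovaries the labels do not report as removed, and the castrated WT and female WT groups, with 3 arrays each, of their wild-type counterparts. The intact male KO and intact male WT groups, also with 3 arrays each, were of males not labelled as castrated. They entered the fit, and their levels are given for reference. The knockout allele, the age at castration and the time since then are not given in the sources used here, nor whether females were staged for the oestrous cycle. The labels number the arrays of a group without saying that each came from a separate animal, so the p-values here refer to array-to-array spread, part or all of which may be technical.

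The adrenal gland joins a cortex that makes steroids to a medulla of chromaffin cells that make catecholamines. In the mouse cortex, an inner layer called the X-zone is lost in males at puberty under androgens and stays in females until a pregnancy, and removal of the testes lets it persist. The adult mouse cortex makes corticosterone and very little androgen, because it hardly expresses Cyp17a1, the hydroxylase and lyase that androgen synthesis requires. After removal of the gonads, cells with gonadal features can appear under the capsule of the mouse adrenal. Ephb6 is a member of the Eph receptor family, which binds ephrins on neighbouring cells and has no kinase activity of its own in this member.

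Castrated KO array 1 was dim, with a mean bead signal of 244 intensity units and 27.8% of probes detected, against 587 and 513 units and 35.4% and 35.0% on the other castrated KO arrays and 539, 579 and 502 units and 34.6% to 36.3% on the female KO arrays. Female KO array 1 was not dim but also stood apart: its mean correlation with its own group was 0.970, while the other female KO arrays had 0.981 and 0.980 and castrated KO array 1 had 0.957. Results are therefore also given without each of these arrays and without both. The sex labels were borne out by Xist, the RNA that silences an X chromosome in female cells, at log2 levels of 4.67, 4.50 and 4.47 in castrated KO and 8.14, 10.23 and 9.88 in female KO, and by Eif2s3y of the Y chromosome, at 8.97, 8.18 and 7.01 in castrated KO and 4.52, 4.37 and 4.37 in female KO. Ephb6 lay near background at log2 levels of 5.51, 5.34 and 5.21 in castrated KO and 4.96, 5.41 and 5.54 in female KO, and was detected on 0 castrated KO arrays and 1 female KO array; castrated WT had 6.68, 6.82 and 6.78 and female WT 6.51, 7.12 and 6.69, all detected and all above the 6 knockout arrays. Cortex and medulla were both present on every array: Cyp11b1, the last enzyme of corticosterone synthesis, and Chgb, a granin of chromaffin granules, were detected on all 6.

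In castrated KO adrenals, several genes of the medulla were lower than in female KO adrenals, and Cyp17a1 was among the genes that were higher. Of the 10032 autosomal genes, 150 (1.50%) passed limma's test at a Benjamini-Hochberg adjusted p under 0.05, 51 (0.508%) higher and 99 (0.987%) lower in castrated KO. The fitted difference was over 2-fold for 77 of them and over 4-fold for 8. On all 150 the 3 castrated KO arrays and the 3 female KO arrays did not overlap, which was so for 17.7% of all autosomal genes tested (8.73% with castrated KO higher and 9.01% with castrated KO lower). Without castrated KO array 1 there were 118 calls (1.18%), 41 higher and 77 lower (0.769%), of which 89 were among the 150. Without female KO array 1 the count was 83 (0.831%), with 51 lower (0.510%) and 61 shared. Without both it was again 83 (0.833%), with 51 lower (0.512%) and 55 shared, and without castrated KO array 3 it was 77. Of 50 named autosomal genes that passed with all arrays, 20 passed in each of the 6 fits that leave out 1 of the arrays compared, and 28 without castrated KO array 3, the lowest count. All 150 differences kept their sign without castrated KO array 1, without female KO array 1 and without both. Groups of arrays that do not overlap all but ensure this, so it adds no support. The split between directions depended on the scaling. With median scaling in place of quantile normalization, 7 genes were called higher and 213 lower, while the median difference of all autosomal genes moved to -0.37 on the log2 scale; relative to that shift the 150 genes kept their directions. A fit of the 6 arrays alone called 2 genes, although 917 had an unadjusted p under 0.05.

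**Figure D1:**
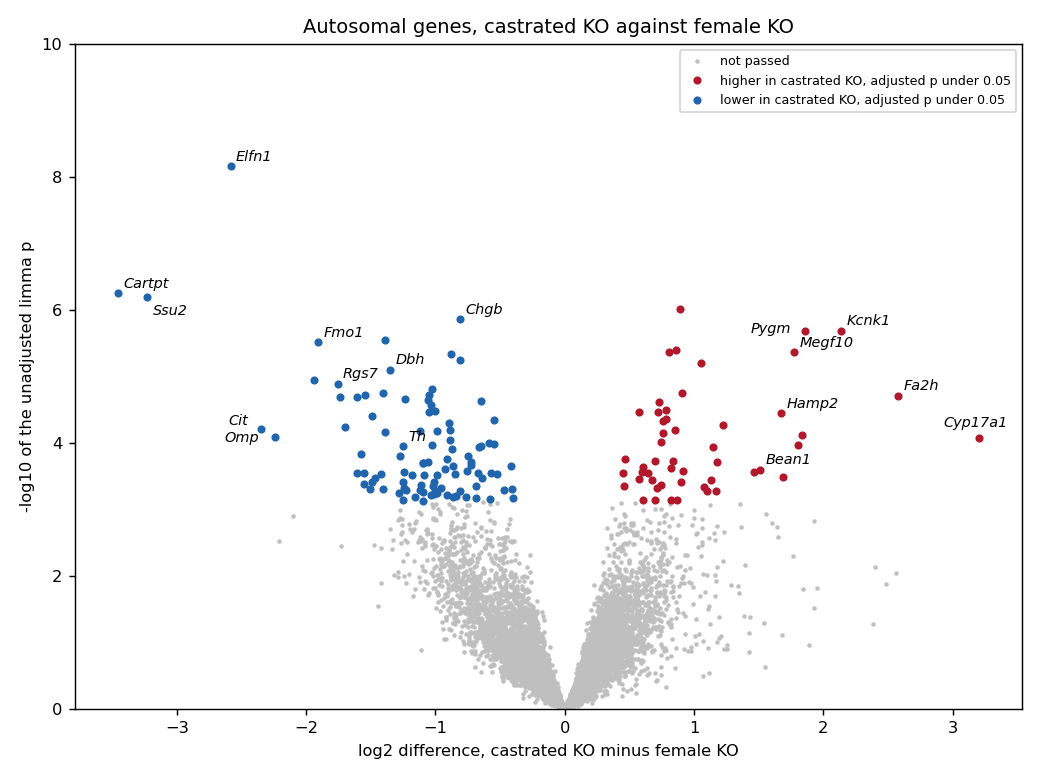
Each point is an autosomal gene: the log2 difference, castrated KO minus female KO, runs along the horizontal axis and the negative log10 of the unadjusted limma p up the vertical axis. Red points are the 51 genes called higher and blue points the 99 called lower in castrated KO; Cyp17a1 lies farthest right at 3.21 and Cartpt farthest left at -3.45.

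Cyp17a1, which no female KO array detected, rose (chromosome 19, 46667165 to 46673000, GRCm38.p6). It had log2 levels of 9.42, 6.61 and 7.58 on the castrated KO arrays, against 4.87, 4.39 and 4.73 on the female KO arrays. All castrated KO arrays were thus above all female KO arrays, and the highest of them was the dim array 1. The fitted difference was 3.21 (SE 0.64, adjusted p = 0.0147), which rests on values at background in female KO; the level was at least 4.96-fold higher in castrated KO, a bound that does not rank the gene above Fa2h. Without castrated KO array 1 the difference was 2.47 and did not pass (adjusted p = 0.0561), nor did it without female KO array 2 (adjusted p = 0.0503). Intact knockout males had 6.19, 5.61 and 6.10.

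Fa2h, the fatty acid hydroxylase that makes the hydroxylated sphingolipids of myelin, had log2 levels of 10.07, 9.95 and 9.28 in castrated KO and 6.85, 8.29 and 6.43 in female KO, a difference of 2.58 (SE 0.45, adjusted p = 0.00708). It passed without castrated KO array 1 (2.43) and without female KO array 1 (2.40), but not without both (2.25, adjusted p = 0.0754). Intact knockout males lay far below either group, at 4.66, 4.56 and 4.76. Kcnk1, a potassium leak channel, had 9.48, 9.41 and 9.34 in castrated KO and 6.24, 7.80 and 7.77 in female KO, and its difference of 2.14 (SE 0.31, adjusted p = 0.00215) passed without either array numbered 1 and without both. Here the 3 castrated KO arrays were almost level, and much of the spread came from female KO array 1. Intact knockout males had 10.79, 10.42 and 10.97, above castrated KO.

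Pygm, the glycogen phosphorylase known from skeletal muscle, had log2 levels of 9.89, 9.16 and 9.61 in castrated KO and 7.43, 7.15 and 8.50 in female KO, a difference of 1.86 (SE 0.27, adjusted p = 0.00215). Megf10, an engulfment receptor with EGF repeats, had 7.47, 6.49 and 7.21 in castrated KO and 5.76, 4.90 and 5.20 in female KO, a difference of 1.77 (SE 0.27, adjusted p = 0.00298). Pygm and Megf10 passed without castrated KO array 1, without female KO array 1 and without both. Of 8 skeletal muscle markers, 5 including Ckm and Acta1 were not detected on any of the 6 arrays. Mylpf was detected on 1 castrated KO array and 1 female KO array, and Tnni2 and Pvalb on 1 female KO array each. Hamp2, a mouse paralogue of the iron hormone hepcidin, had 7.26, 7.95 and 6.99 in castrated KO and 6.36, 5.76 and 5.06 in female KO (difference 1.68), and a probe for it may also bind the transcript of its close relative Hamp. Ptp4a1, a small protein phosphatase, differed by 1.46 (adjusted p = 0.0287) and Htra4, a serine protease of the HtrA family, by 1.15 (adjusted p = 0.0174), both also without either array numbered 1, but neither without castrated KO array 2 or 3 or female KO array 2, and Ptp4a1 not without female KO array 3.

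Among the other large increases, several failed when any of several arrays was left out. Ugt1a10, a glucuronosyltransferase whose last exons are shared by the whole Ugt1a cluster so that the probe may not tell these genes apart, had log2 levels of 11.57, 11.73 and 10.99 in castrated KO and 9.50, 9.58 and 9.80 in female KO (difference 1.80, adjusted p = 0.0173). It missed the threshold without castrated KO array 1 (adjusted p = 0.0543) and without female KO array 1 (0.124). Rdh9, of the retinol dehydrogenase family (1.69), and Klhdc8a (1.17) likewise failed without either array, and a further probe of Klhdc8a gave -0.33. Oosp1, named for its secretion by oocytes, failed without castrated KO array 1, and Bean1, a protein that binds the ubiquitin ligase Nedd4, and Prss35, a serine protease homologue, failed without female KO array 1. Without female KO array 2, Oosp1, Bean1, Rdh9, Klhdc8a and Ugt1a10 failed as well. Bean1 also failed without castrated KO array 2 or 3, Prss35 and Klhdc8a without castrated KO array 3, and Rdh9 and Klhdc8a without female KO array 3. Fam222a (1.83) passed without either array numbered 1 and without both, but not without female KO array 2. Of the 15 largest increases, 10 passed without castrated KO array 1, 10 without female KO array 1 and 8 without both.

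**Figure D2:**
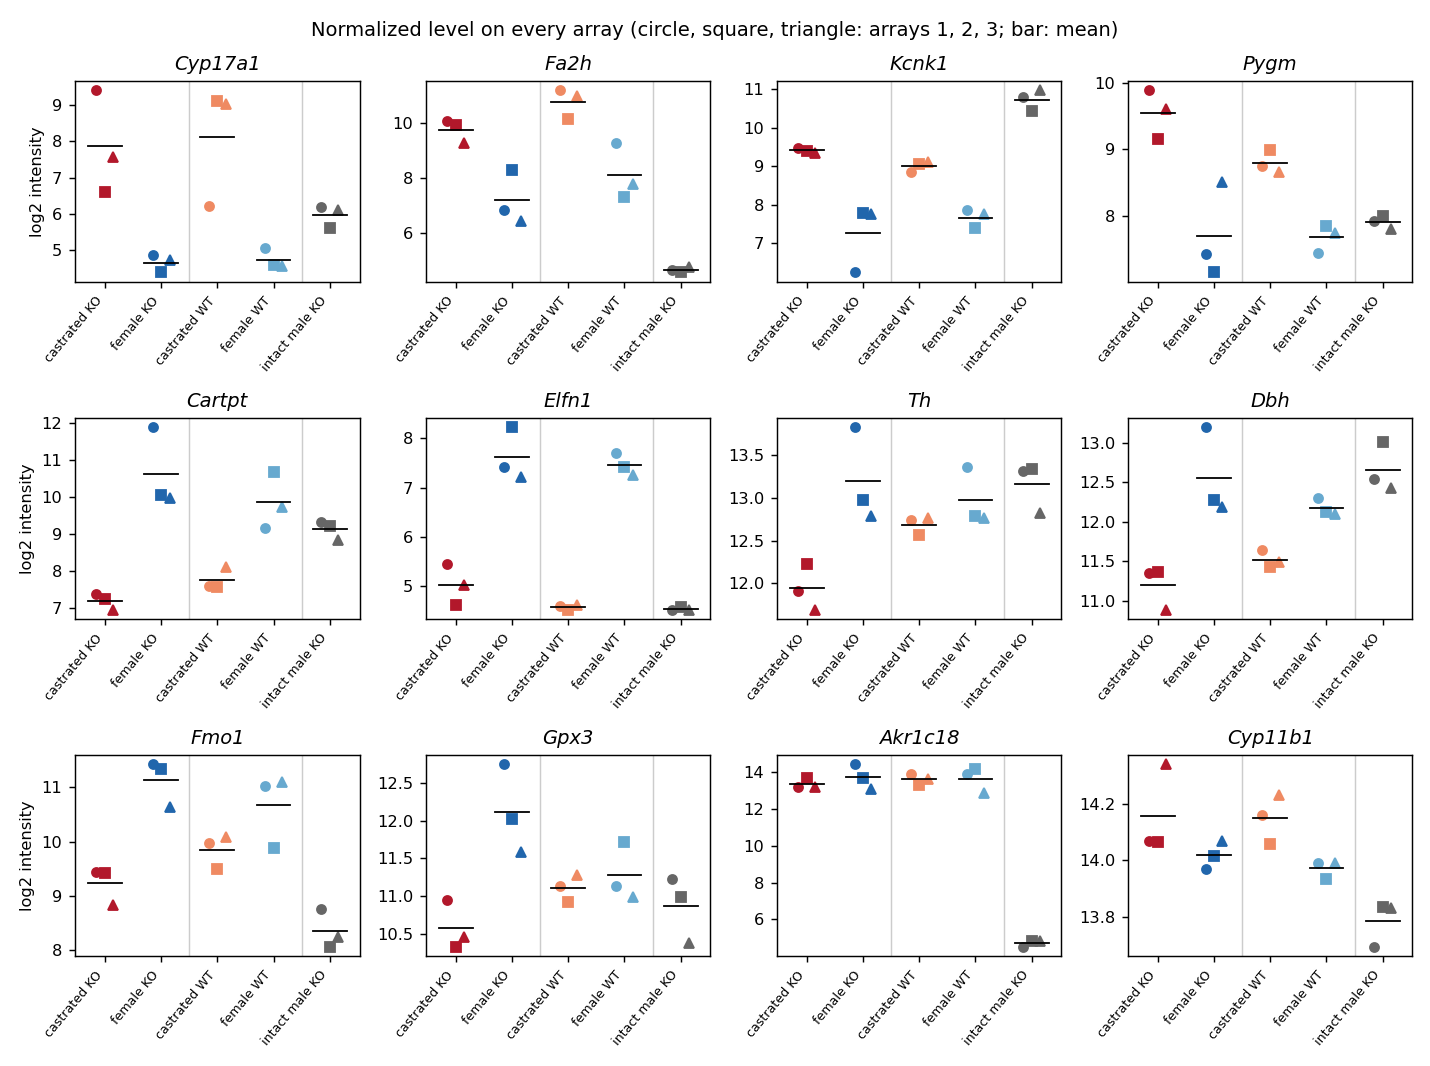
Normalized log2 intensity of 12 genes on every array of castrated KO, female KO, castrated WT, female WT and intact male KO adrenals, with a bar at the mean of each 3 arrays. Cyp17a1, Fa2h, Kcnk1 and Pygm lie higher in castrated KO than in female KO on every array, Cartpt, Elfn1, Th, Dbh, Fmo1 and Gpx3 lie lower on every array, and Akr1c18 and Cyp11b1 did not pass.

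Genes of the medulla were among those that fell. Th, the enzyme that opens catecholamine synthesis, had log2 levels of 11.91, 12.22 and 11.70 in castrated KO and 13.82, 12.97 and 12.79 in female KO, a difference of -1.25 (SE 0.25, adjusted p = 0.0174). Dbh, which turns dopamine into noradrenaline inside chromaffin granules, had 11.35, 11.37 and 10.89 in castrated KO and 13.20, 12.28 and 12.19 in female KO, a difference of -1.35 (SE 0.22, adjusted p = 0.00434). Cyb561, the granule cytochrome that supplies Dbh with electrons, had 12.18, 12.54 and 12.10 in castrated KO and 13.33, 13.15 and 12.97 in female KO (-0.88, SE 0.14, adjusted p = 0.00298). In each of these genes every castrated KO array lay below every female KO array, and female KO array 1 was the highest of the 6. Without female KO array 1, Dbh (-1.03, adjusted p = 0.0132) and Cyb561 (-0.78, adjusted p = 0.0179) passed and Th did not (-0.93, adjusted p = 0.0814); Th also failed without castrated KO array 3 (adjusted p = 0.0816). In whole glands, fewer cells of a type and less RNA per cell cannot be told apart.

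Ddc, which decarboxylates the product of Th, differed by -1.0 and did not pass (adjusted p = 0.0694). Pnmt, which makes adrenaline, had log2 levels of 11.45, 12.59 and 12.43 in castrated KO and 13.51, 12.49 and 12.92 in female KO. The groups overlapped, and the difference of -0.81 did not pass (adjusted p = 0.362). Of 15 genes listed for catecholamine synthesis and storage, 11 autosomal ones were tested, of which 0 were called higher and 3 lower. Among all autosomal genes tested, 0.508% were called higher and 0.987% lower. The median difference of the list was -0.81 in log2, that of all autosomal genes 0.0027. Without castrated KO array 1 the median was -0.83 and 3 fell, and without female KO array 1 it was -0.54 and 2 fell; without female KO array 2, 5 fell. The summed level of the tested members was 27843, 29536 and 25034 intensity units on the castrated KO arrays, against 64627, 38817 and 39068 on the female KO arrays.

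Among granins and peptides of the medulla, 5 of 13 tested genes fell and 0 rose, with 11 differences below 0 and 2 above. Over all autosomal genes tested, 0.987% were called lower and 49.6% had a difference below 0. Cartpt, which encodes the CART neuropeptides (chromosome 13, 99898483 to 99910179), had log2 levels of 7.37, 7.24 and 6.96 in castrated KO and 11.90, 10.05 and 9.98 in female KO. This was the largest fitted decrease, -3.45 (SE 0.46, adjusted p = 0.00131), and it passed without castrated KO array 1 (-3.54), without female KO array 1 (-2.83) and without both (-2.92). Intact knockout males lay between the 2 groups, at 9.32, 9.21 and 8.85. Chgb had 14.24, 14.05 and 13.82 in castrated KO and 15.12, 14.70 and 14.71 in female KO (-0.81, SE 0.12, adjusted p = 0.0018). Npy, neuropeptide Y, had 14.12, 13.59 and 13.46 in castrated KO and 15.24, 14.54 and 14.59 in female KO (-1.06, SE 0.19, adjusted p = 0.00727). Both passed without either array numbered 1 and without both. Gal, the precursor of galanin (-1.06), and Chga, the other major granin (-0.75), passed without castrated KO array 1 but not without female KO array 1 (adjusted p = 0.0864 and 0.0983). Both failed without castrated KO array 3, and Gal without castrated KO array 2. The median of the 13 granin and peptide genes was -0.79. Without female KO array 1 3 fell and the median was -0.46, and without castrated KO array 3 3 fell and it was -0.59.

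Transcription factors and receptors that mark chromaffin cells had a median difference of -0.83 over 13 tested genes, of which 2 fell, against 0.987% of all autosomal genes. These were Gata2, a zinc finger factor (10.04, 10.04 and 9.67 in castrated KO, against 11.27, 10.93 and 10.64 in female KO, difference -1.03, adjusted p = 0.0173), and Ret, the receptor of the GDNF family, which was not detected on the castrated KO arrays and was at least 1.53-fold lower (adjusted p = 0.0455). Ret failed without castrated KO array 1, 2 or 3 or female KO array 1 or 2. Gata2 failed without castrated KO array 3 or female KO array 1. Phox2a, a determinant of noradrenergic cells (-0.84), and Gfra3, a co-receptor of Ret (-1.12), did not pass. Of the 13, 1 fell without castrated KO array 1 or array 2, and 0 fell without castrated KO array 3 or, of 12 then tested, without female KO array 1; 3 fell without female KO array 3. Of 16 tested genes of excitability and exocytosis 1 fell: Chrnb4, a subunit of the nicotinic receptor through which nerves drive the chromaffin cell, was at least 1.38-fold lower (adjusted p = 0.034) and passed neither without castrated KO array 1 nor without female KO array 1. In that list 0 fell without castrated KO array 1 (where 1 was called higher) or 3 or female KO array 1 or 2, and 2 fell without castrated KO array 2 or female KO array 3. Cadps, which primes dense-core granules (-1.20), did not pass, and the median of that list was -0.76 with all arrays and -0.43 without female KO array 1. Syt5, a synaptotagmin outside that list, had levels of 4.91, 5.75 and 5.08 in castrated KO and 8.05, 6.97 and 6.55 in female KO (-1.94, SE 0.33, adjusted p = 0.00596) and passed without either array.

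**Figure D3:**
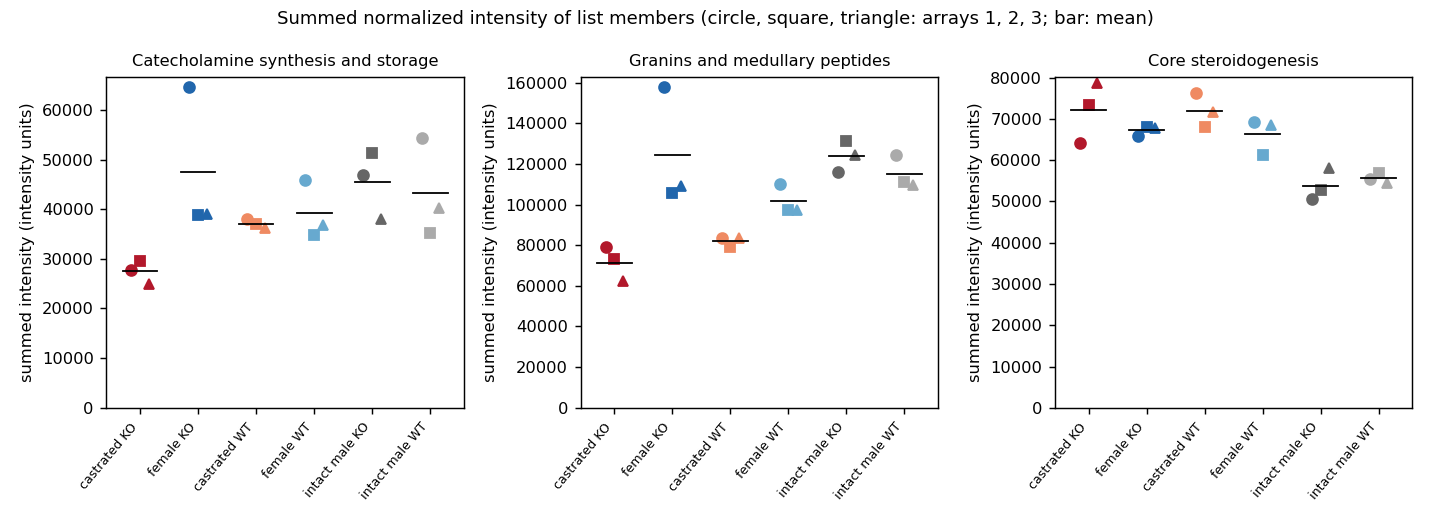
Summed normalized intensity of the tested members of 3 gene lists on each array, in intensity units, with a bar at the mean of each group of 3. The castrated KO arrays lie below all other arrays for catecholamine genes, and female KO array 1 lies highest for catecholamine genes at 64627 and for granins and peptides at 157890; sums for core steroidogenesis overlap between castrated KO and female KO.

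The promoter windows of Th, the enzyme at the head of the pathway, and Cartpt, the gene with the largest fitted decrease, each hold an exact match to the cAMP response element. This is the palindrome through which cAMP-activated factors act in chromaffin cells. The window of Dbh holds no exact match, and variant forms of the element were not searched. The windows below run from 250 bases before to 50 bases after a transcript start, are taken from RefSeq on GRCm38.p6 and read 5′ to 3′ on the strand of the gene. Capitals mark exact matches to the element, TGACGTCA, searched on both strands. In Th (chr7:142899946-142900245, minus strand) it begins 45 bases before the start, and in Cartpt (chr13:99900634-99900933, minus strand) 112 bases before the start used there. That start lies inside the annotated span of Cartpt, 9496 bases from its 5′ end, whereas the starts of Th and Dbh are the ends of their spans. The Dbh window is chr2:27165257-27165556, plus strand.
Th: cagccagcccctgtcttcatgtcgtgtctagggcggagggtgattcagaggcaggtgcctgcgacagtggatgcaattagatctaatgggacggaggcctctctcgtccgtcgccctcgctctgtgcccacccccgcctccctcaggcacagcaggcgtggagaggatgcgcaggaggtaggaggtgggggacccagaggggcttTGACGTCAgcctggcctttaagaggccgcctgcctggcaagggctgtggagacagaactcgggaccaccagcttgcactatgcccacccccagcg
Cartpt: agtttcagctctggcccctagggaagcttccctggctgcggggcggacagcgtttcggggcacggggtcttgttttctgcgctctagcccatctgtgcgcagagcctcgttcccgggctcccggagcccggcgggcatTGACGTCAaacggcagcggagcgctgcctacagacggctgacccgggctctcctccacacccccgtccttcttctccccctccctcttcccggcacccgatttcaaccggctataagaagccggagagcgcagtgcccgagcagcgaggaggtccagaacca
Dbh: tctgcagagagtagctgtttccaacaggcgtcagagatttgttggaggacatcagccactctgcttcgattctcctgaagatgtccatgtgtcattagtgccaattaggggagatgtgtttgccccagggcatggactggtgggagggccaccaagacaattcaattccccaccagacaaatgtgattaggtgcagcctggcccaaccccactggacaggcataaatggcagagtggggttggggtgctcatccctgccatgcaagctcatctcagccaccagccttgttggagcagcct
An exact match was found in 1.79% of 32851 windows in the table and in 3.02% of the 10414 windows of autosomal genes tested, or in 296 of 8088 tested genes with a window (3.66%). By gene it occurred in 4 of 69 called lower (5.8%) and in 1 of 42 called higher (2.38%) in castrated KO. A second motif, AAGGTCA, known as the SF-1 site, was also searched on both strands and was absent from the windows printed above. By gene this second motif occurred in 1 of 69 called lower (1.45%) and in 3 of 42 called higher (7.14%), against 3.81% of tested genes. These matches describe letters in a window and are no evidence of binding.

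Other large decreases lay outside the medullary lists. Elfn1, a synaptic adhesion protein with leucine-rich repeats, had log2 levels of 5.44, 4.62 and 5.02 in castrated KO, where it was not detected, and 7.41, 8.22 and 7.21 in female KO. It was at least 3.29-fold lower in castrated KO, with the smallest adjusted p of the autosomal genes (fitted difference -2.59, SE 0.26, adjusted p = 2.39e-05), and it passed without either array numbered 1 and without both. Intact knockout males were level with castrated KO, at 4.52, 4.57 and 4.52. Ssu2 was not detected in castrated KO (5.46, 5.37 and 4.75) and had 9.77, 8.01 and 7.48 in female KO, at least 5.76-fold lower (adjusted p = 0.00131); its values in intact knockout males were 4.62, 4.94 and 5.10. Cit, a kinase of cytokinesis, had 6.61, 5.52 and 4.39 in castrated KO and 8.13, 8.32 and 7.10 in female KO (-2.35, adjusted p = 0.0126), and did not pass without female KO array 1 (adjusted p = 0.0526), female KO array 2 or castrated KO array 3.

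Omp, known as a marker of olfactory neurons, had levels of 6.90, 6.51 and 5.89 in castrated KO and 10.02, 8.50 and 7.49 in female KO (-2.24, adjusted p = 0.0146). Socs2, the inhibitor of growth hormone signalling, had 8.51, 9.07 and 9.04 in castrated KO and 10.31, 11.22 and 10.29 in female KO (-1.74, adjusted p = 0.00708). Rgs7, which shortens G protein signals in neurons, had 7.09, 7.15 and 6.55 in castrated KO and 8.65, 9.0 and 8.40 in female KO (-1.76, adjusted p = 0.00633). These 3 genes passed without either array numbered 1 and without both, and Omp failed without castrated KO array 3. Slc6a4, the serotonin transporter, differed by -1.61 at its brighter probe (adjusted p = 0.00708) and by 0.03 at another probe, so its probes disagreed. The protease inhibitor gene Spink8 (-1.70) fell and its relative Spink4 was at least 1.54-fold lower, while Ms4a10, a membrane protein of the MS4A family (-1.58), Sez6l, a neuronal membrane protein (-1.55), and Ky, a muscle protease homologue (-1.55), completed the 15 largest decreases. Of these 15, 13 passed without castrated KO array 1 (Ky and Spink4 did not), 10 without female KO array 1 (Cit, Ms4a10, Sez6l, Spink4 and Spink8 did not) and 12 without both. Ms4a10 and Sez6l also failed without castrated KO array 2 or 3, and Ky without castrated KO array 3 or female KO array 2 or 3. Spink4 failed without castrated KO array 3 as well, and both Spink4 and Spink8 without female KO array 2.

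Enzymes of detoxification and peroxide removal gave 4 lower and 0 higher among 34 tested, with a median of -0.23. The shares over all autosomal genes were 0.987% lower and 0.508% higher. Fmo1, a flavin monooxygenase that oxidizes drugs and other amines, had levels of 9.43, 9.42 and 8.84 in castrated KO and 11.43, 11.34 and 10.64 in female KO (-1.91, SE 0.29, adjusted p = 0.00263). Gpx3, the secreted glutathione peroxidase, had 10.95, 10.32 and 10.46 in castrated KO and 12.75, 12.03 and 11.58 in female KO (-1.54, SE 0.27, adjusted p = 0.00708). Ephx1, the microsomal epoxide hydrolase, had 11.96, 12.44 and 12.39 in castrated KO and 12.85, 13.39 and 13.25 in female KO (-0.90, SE 0.17, adjusted p = 0.0112). In all of these the groups were apart, and all passed without either array numbered 1 and without both. Gpx1, the cytosolic peroxidase, fell by 0.40 (adjusted p = 0.0455) with all arrays and did not pass without either of them, castrated KO array 3 or female KO array 2 or 3.

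In the cortex, no gene of the X-zone list passed. Akr1c18, which inactivates progesterone and marks the X-zone, had log2 levels of 13.19, 13.68 and 13.17 in castrated KO and 14.41, 13.67 and 13.11 in female KO, a difference of -0.38 (SE 0.31, adjusted p = 0.554). The groups overlapped, whereas the intact knockout males had 4.52, 4.81 and 4.81. Pik3c2g, a lipid kinase of the X-zone, had 9.27, 9.55 and 8.91 in castrated KO and 10.82, 9.47 and 8.78 in female KO, with 4.38, 4.39 and 4.65 in intact males. Cyp2f2, a P450 enzyme of the same list, had 13.43, 13.83 and 13.66 in castrated KO and 13.50, 13.63 and 14.11 in female KO, with 6.19, 5.83 and 6.13 in intact males. Their differences were -0.45 (SE 0.45) and -0.11 (SE 0.19). For all 3 genes castrated KO therefore lay within the range of female KO or overlapped it, and far above intact males.

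Of 8 tested genes of core steroidogenesis 0 passed, with a median difference of 0.06, or -0.22 under median scaling. Cyp11a1, which starts steroid synthesis from cholesterol, had 12.20, 12.09 and 12.24 in castrated KO and 12.42, 12.24 and 11.95 in female KO (-0.03, SE 0.12), though its probes ranged from -0.57 to 1.07. Cyp11b1 had 14.07, 14.06 and 14.34 in castrated KO and 13.97, 14.01 and 14.07 in female KO (0.14, SE 0.09). Star, which carries cholesterol into mitochondria, had 12.90, 13.20 and 12.97 in castrated KO and 12.04, 12.46 and 12.56 in female KO; its arrays were apart, but the difference of 0.67 did not pass (adjusted p = 0.0818). Neither did any of 13 tested genes of the zona glomerulosa, among them Cyp11b2, the aldosterone synthase (0.46, adjusted p = 0.557), nor any of 17 genes of cholesterol synthesis and uptake. The summed level for core steroidogenesis was 64089 to 78729 units in castrated KO and 65783 to 68153 units in female KO.

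Genes reported in the cells that arise after removal of the gonads gave 1 higher, Cyp17a1, and 1 lower, Grb10, an imprinted adaptor of growth factor receptors (-0.66, adjusted p = 0.0175), among 8 tested. Over all autosomal genes, 1.50% were called in either direction. Inha, the inhibin alpha subunit, had log2 levels of 10.16, 8.90 and 9.06 in castrated KO and 6.51, 8.31 and 8.50 in female KO. Its arrays were apart and the difference of 1.60 did not pass (adjusted p = 0.0742), and without female KO array 1 it was 0.97. Amhr2, the receptor of anti-Müllerian hormone, differed by 1.11 with overlapping arrays (adjusted p = 0.243). The median of the list was 0.65 with all arrays and 0.31 without castrated KO array 1, and without that array or female KO array 2, 0 genes of the list were called higher. Grb10 did not pass without female KO array 1 (adjusted p = 0.0814) or castrated KO array 3 (0.0823), which left 0 lower. Gata4, the factor best known from these cells, did not pass the detection filter.

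**Figure D4:**
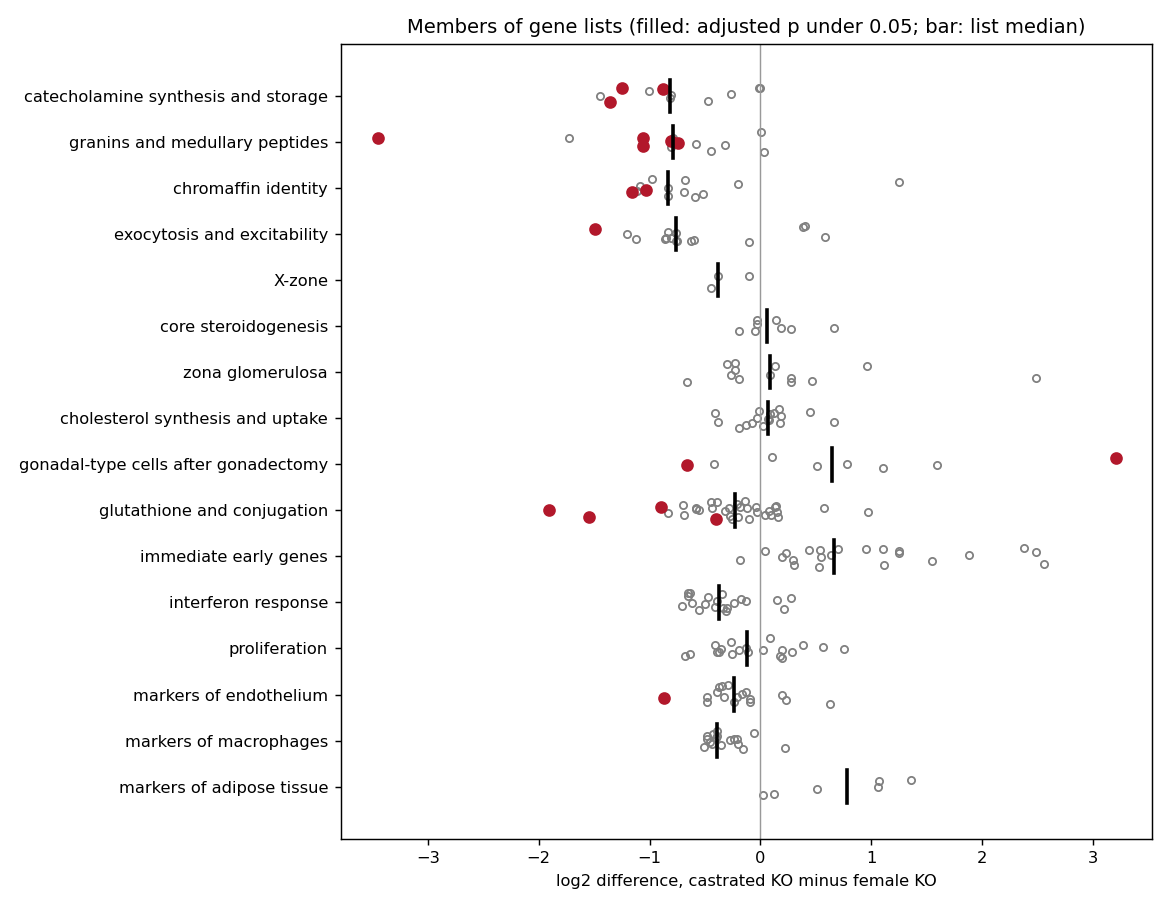
Log2 differences, castrated KO minus female KO, of the tested autosomal members of 16 gene lists, 1 row per list; filled red points passed at an adjusted p under 0.05, open points did not, and the bar marks the median. The 4 medullary lists at the top have medians from -0.83 to -0.76, core steroidogenesis lies near 0 at 0.06 and immediate early genes at 0.67.

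Markers of other cells and tissues were set beside these results, where 1.50% of all autosomal genes were called and 49.6% had a difference below 0. Endothelial markers had a median of -0.24 over 17 tested genes, and Pecam1, an adhesion protein of endothelium, fell (-0.87, adjusted p = 0.0258) but did not pass without castrated KO array 1, female KO array 1 or female KO array 3; the summed level was 21647 to 24567 units in castrated KO and 24441 to 30443 in female KO. Macrophage markers had 0 calls of 17, a median of -0.39, and sums of 8606 to 9686 units in castrated KO and 10666 to 12962 in female KO. Smooth muscle markers had 0 calls of 5 and sums of 1977 to 2250 units in castrated KO and 3046 to 4433 in female KO, with Acta2, a contractile actin, at -1.32 (adjusted p = 0.157). Adipose markers had 0 calls of 6, all above 0, and sums of 331 to 724 units in castrated KO and 211 to 372 in female KO. Lep, the hormone leptin, differed by 1.36 (adjusted p = 0.0786) and Plin1, which coats lipid droplets, by 1.06 (adjusted p = 0.0958), while Fabp4 was not detected on any of the 6 arrays. Of 8 ovary markers, 6 including Zp3 and Zp2 were not detected on any of the 6 arrays compared; Oosp1 rose (1.17, adjusted p = 0.0242), and Gdf9, an oocyte growth factor, differed by 1.84 (adjusted p = 0.185), with sums of both at 250 to 999.6 units in castrated KO, highest on the dim array 1, and 115 to 162 in female KO. The part of these cells in the differences was not tested.

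Other lists held few calls. Over all autosomal genes, 0.508% were called higher and 0.987% lower, and 49.6% had a difference below 0. Immediate early genes, which respond within minutes to stimulation, had 21 of 22 differences above 0 and a median of 0.67, and none passed. Gadd45b, a stress response gene, had log2 levels of 12.56, 10.14 and 10.87 in castrated KO and 7.37, 8.56 and 9.96 in female KO (2.56, adjusted p = 0.152), and Nr4a2, an orphan nuclear receptor, had 10.27, 8.06 and 8.25 in castrated KO and 6.28, 5.93 and 6.91 in female KO (2.49, adjusted p = 0.172). In both, the dim castrated KO array 1 was highest, and without it the median of the list was 0.28. Interferon response genes had 0 calls of 20 and a median of -0.37. Among 23 matrix genes 1 fell, Col4a2, a basement membrane collagen (-0.65, adjusted p = 0.0174), which passed without either array numbered 1 and without both but not without castrated KO array 2 or female KO array 2. Without female KO array 2, 0 matrix genes fell and the median of the list was -0.10, against -0.28 with all arrays. Dlk1, an unusual ligand of the Notch pathway, had 13.79, 13.91 and 13.65 in castrated KO and 14.67, 14.30 and 14.32 in female KO (-0.64, adjusted p = 0.00731). Pdk4, a kinase that turns off pyruvate oxidation and is induced by glucocorticoids, had 5.79, 6.21 and 5.82 in castrated KO and 7.24, 7.55 and 7.19 in female KO (-1.39, adjusted p = 0.0128), the 1 call among 14 glucocorticoid-induced genes tested, lost without castrated KO array 3 or female KO array 2.

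Intact knockout males, which share the genotype but no array with either group, differed from gene to gene in where they stood. Of the 99 genes lower in castrated KO, the mean of the intact male KO arrays was nearer to female KO for 67 (67.7%) and nearer to castrated KO for 32, against 56.6% of all autosomal genes nearer to female KO. Dbh and Th were of the first kind: intact males had 12.54, 13.01 and 12.42 for Dbh and 13.31, 13.34 and 12.82 for Th, within the range of the female KO arrays. Elfn1, Ssu2 and Fmo1 (8.76, 8.06 and 8.23 in intact males) were of the second. Of the 51 genes higher in castrated KO, 26 had an intact male mean nearer to castrated KO and 25 nearer to female KO. These shares are a description of the called genes and carry no test.

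The same comparison in wild-type adrenals uses other arrays. There, 31 autosomal genes (0.309%) passed, 13 higher (0.130%) and 18 lower (0.179%) in castrated WT, with 941 at an unadjusted p under 0.05. With only the arrays of each comparison in its fit, the order turned: 157 genes passed in wild type and 2 in the knockout. The 2 counts depend on which arrays enter the fit and do not rank the genotypes. In the fit of all groups, the wild-type count was 10, 17 and 8 without castrated WT arrays 1, 2 and 3 in turn. It was 5 and 8 without female WT arrays 2 and 3. Of the 150 genes called in the knockout, 15 were also called in wild type, and 145 had the same sign there (96.67%), against 61.9% of all autosomal genes. Across the 10032 autosomal genes the differences of the 2 genotypes had a Pearson r of 0.471 and a Spearman rho of 0.368, as a description over genes that share arrays within each comparison.

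Cyp17a1 had log2 levels of 6.23, 9.10 and 9.04 in castrated WT and 5.06, 4.59 and 4.56 in female WT, a difference of 3.39 (adjusted p = 0.0244), at least 6.04-fold. Fa2h (2.67, adjusted p = 0.0134) and Elfn1 (at least 3.59-fold lower, adjusted p = 6.3e-06) also passed in wild type. The same held for Hamp2, Megf10, Bean1, Htra4 and Cit, so that 8 of the 30 largest changes passed in both genotypes and all 30 had the same sign. Cartpt differed by -2.11 in wild type and did not pass (adjusted p = 0.0603).

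Medullary genes had these values in wild type. Th had 12.73, 12.56 and 12.76 in castrated WT and 13.36, 12.78 and 12.77 in female WT (-0.29, adjusted p = 0.863), Dbh differed by -0.65 (adjusted p = 0.282), and the medians of the catecholamine and granin lists were -0.14 and -0.22. The chromaffin identity list had -0.38, with 12 of 13 differences below 0, and the excitability and exocytosis list -0.08. The median of all autosomal genes in wild type was -0.0085. Granin and peptide sums were 79032 to 83744 units in castrated WT and 97481 to 110320 in female WT. Catecholamine sums overlapped, at 36241 to 38008 and 34814 to 45911 units. No gene of these lists was called in wild type. Gpx3 differed by -0.17 in wild type, Gal by 0.07 and Oosp1 by 0.06. Whether the comparison differed between genotypes was tested as an interaction. At an adjusted p under 0.05, 0 genes passed in limma, in the fit described here and in every alternative run. An unadjusted p under 0.05 was reached by 444 of the 10032 autosomal genes. That is a smaller share than the 0.05 expected to reach it if no gene differed between genotypes. The interaction was -0.96 (SE 0.36) for Th, -0.70 (SE 0.31) for Dbh and -0.75 (SE 0.19) for Cyb561, each with an adjusted p of 0.911. Among the 5 smallest interaction p-values were Cldn7, a tight junction protein, and Tnfrsf21, a death receptor. Cldn7 had 7.02, 6.31 and 6.95 in castrated KO, 5.89, 5.13 and 5.87 in female KO, 5.76, 5.24 and 5.76 in castrated WT and 6.11, 6.04 and 6.04 in female WT, an interaction of 1.61 (SE 0.37, adjusted p = 0.911). Tnfrsf21 ran the other way, with an interaction of -1.44 (SE 0.34). A p that misses the threshold does not show that the genotypes act alike: the median SE of an interaction was 0.291, against 0.206 for a single comparison.

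**Figure D5:**
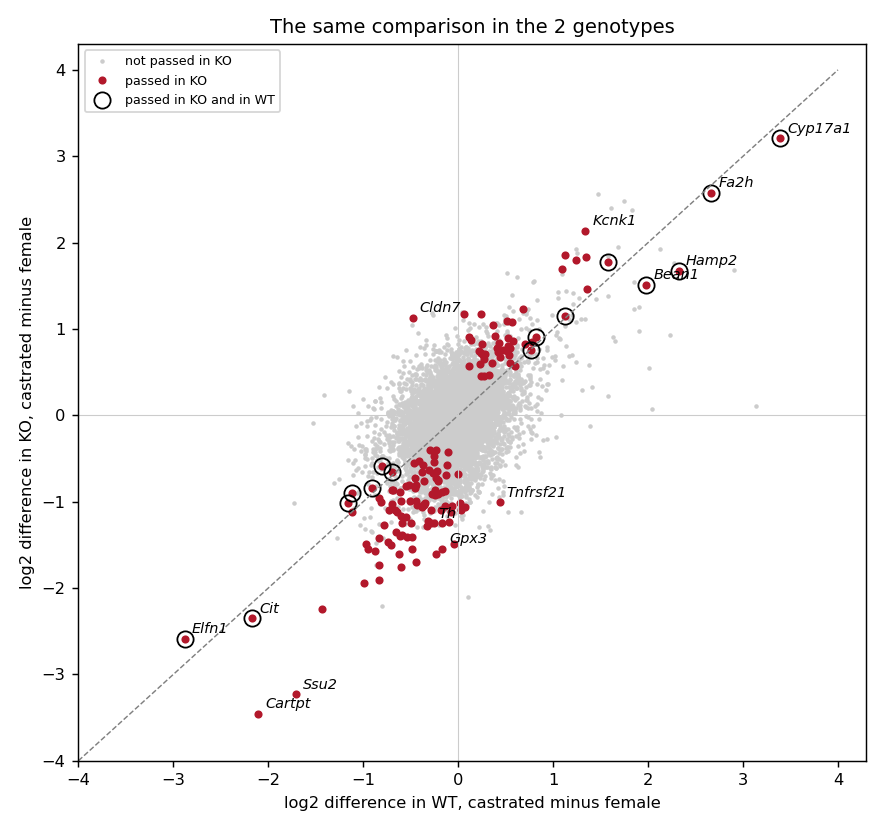
Each point is an autosomal gene, with the log2 difference castrated minus female in WT on the horizontal axis and in KO on the vertical axis; red points passed in KO, circled points passed in KO and in WT, and the dashed line marks equal differences. Cyp17a1 (3.39 in WT, 3.21 in KO), Fa2h and Elfn1 lie near the line, while Th (-0.29 in WT, -1.25 in KO) and Gpx3 lie below it.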

How the data were processed

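RNA was purified on columns and amplified to biotinylated cRNA, per the labels' protocols. Per the file headers, the deposited table holds for 45281 probes an intensity without normalization between arrays and a detection p-value. The authors' normalized intensity values, by a method the sources used here do not name, served as an alternative. The submitters' processing notes name GenomeStudio.

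From these, limma 3.58.1 under R 4.3.3 (function neqc, 16 added before log2) gave background-corrected, quantile-normalized log2 levels. Probes detected (p under 0.01) on 3 or more arrays were kept, and the brightest stood for each of 10375 genes. The 18 arrays in 6 groups entered 1 limma fit with an intensity trend, 12 residual degrees of freedom and Benjamini-Hochberg adjustment over all genes, and autosomal genes were then counted. Differences are log2, castrated minus female, with the standard error (SE) of the fit. A bound on a fold sets the brighter group against a floor, which on each dim array is the dimmest detected probe, or the gene's own value where that is higher. On simulated data for this comparison (10380 genes) the fit recovered 78% of changes of log2 size 1 and 97% of size 2, with 9 calls among unchanged genes. The simulation gave each gene independent noise of the same size on every array. The real arrays were less even, with array weights from 0.16 for castrated KO array 1 to 2.74 for intact male WT array 3. These rates therefore need not hold for the real arrays. The number of arrays limits the precision, and neither slide nor scan is given in the sources used here. Same-numbered arrays did not all deviate together (correlations -0.00222 to 0.0604 in the knockout and -0.0796 to 0.152 in wild type), and no arrays held identical values.

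Platform annotation named the probes and RefSeq (GRCm38.p6) placed the genes. Named genes were the 15 largest increases and 15 largest decreases that passed with arrays not overlapping, up to 5 members of each of 40 lists, the 5 smallest interaction p-values and a fixed set of sex-chromosome, medullary and cortical genes. The comparison, the members and the lists were chosen with earlier results of these data known. Alternatives covered background, scaling, the authors' values, filters, probe choice, array weights, variance model, replicate block, the 6 arrays alone and leaving out arrays; the fit without both arrays numbered 1 was chosen after seeing the data.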

Additional observations from a re-analysis of the deposited data

How the results depend on the processing

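The count of 150 autosomal genes in the knockout comparison was 571 with array weights, 99 without the intensity trend, 2 with the 6 arrays alone and 83 without both arrays numbered 1, and leaving out 1 array gave 77 to 182. The wild-type count of 31 was 8 under median scaling, 324 with array weights and 157 with only the groups compared, and leaving out 1 array gave 5 to 26. Of 78 named genes, the 52 that passed kept their direction under every alternative. Where arrays were left out, groups that do not overlap all but ensure this. Only Xist passed under every alternative, and 16 autosomal genes passed under all but the fit of the 6 arrays alone. Whether arrays with the same replicate number belong together is not given in the labels. With a replicate block the counts were 133 in knockout and 30 in wild type. The direction turned for 6 genes that had not passed. Akr1c18 was 0.037 and Pik3c2g 0.105 without both arrays numbered 1. Cyp11a1 was 0.159 with the mean of its probes, 0.0693 with array weights and 0.0694 without both arrays numbered 1, and leaving out 1 array gave -0.152 to 0.0814. Cyp11b1 was -0.168 and Ephb6 -0.129 under median scaling. Ephb6 was also -0.163 with array weights and -0.203 without both arrays numbered 1. Leaving out 1 array gave -0.121 to 0.169 for Ephb6, -0.229 to 0.0735 for Cyp2f2 and -0.902 to 0.118 for Pik3c2g. The cause was not tested.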

Other observations

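Outside the autosomes, 9 of 322 tested genes of the X and Y chromosomes passed, 2 higher and 7 lower in castrated KO. Among autosomal genes 1.50% passed, 0.508% higher and 0.987% lower. Besides Xist and Eif2s3y these were Xlr4a, a lymphocyte-regulated gene of the X chromosome (2.41), and, all lower in castrated KO, Il13ra1, a receptor chain of interleukin signalling (-1.21), Syn1, a synaptic vesicle protein (-1.17), Mpp1 (-0.92), Prdx4, a peroxiredoxin of the endoplasmic reticulum (-0.77), Eif2s3x, the X-linked partner of Eif2s3y (-0.72), and Bgn, a matrix proteoglycan (-0.66). The groups differ in their number of X chromosomes.

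The fit of the 6 arrays alone called Zyx, a protein of focal adhesions, and Slc25a25, a mitochondrial carrier for ATP; they are named here after their values were seen. Zyx had log2 levels of 13.41, 13.46 and 13.46 in castrated KO and 12.56, 12.51 and 12.59 in female KO, and Slc25a25 had 10.41, 10.48 and 10.61 in castrated KO and 8.82, 8.06 and 8.84 in female KO. Their differences in the fit of all 18 arrays were 0.89 (limma adjusted p = 0.00143) and 1.93 (adjusted p = 0.0727), and 0.52 and 2.13 in wild type, neither of which passed there.

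Genes of the cell cycle and of the interferon response had different medians in the 2 genotypes. The proliferation list had a median of -0.12 over 20 genes in the knockout comparison, with 0 calls, and -0.55 in the wild-type comparison, with 2 genes called lower. The interferon response list had -0.37 with 0 calls in the knockout and -0.78 with 2 genes called lower in wild type, among them Usp18, a regulator of interferon signalling (-0.65 in KO, adjusted p = 0.0786; -0.94 in WT, adjusted p = 0.0245). Over all autosomal genes, 0.987% were called lower in the knockout and 0.179% in wild type. No gene of either list passed the interaction test.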
